A study of Mus musculus with 5 samples.

Results

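Rab GTPases were followed in brain dendritic cells (DCs) and bone marrow monocytes of the mouse. The group comprised 38 named Rab genes, each read from every probe set annotated to that gene symbol alone. They were covered by 91 probe sets of the 45101 on the array, and they made up 38 of the 18193 genes that could be tested. Brain DCs (2 arrays) were gated as Lin-CD45hiCD11c+ in C57BL/6 mice. These mice carried a subcutaneous B16-Flt3L tumour, inoculated 12 days before the organs were taken. B16 cells are a melanoma line of the mouse, and Flt3L (Flt3 ligand) is a growth factor of DCs. Bone marrow monocytes (3 arrays) were gated as SSCloCD11bhi CD115+ cells in C57BL/6 mice, for which no treatment is labelled. All mice were labelled female and 6 to 8 weeks old. Neither a separate animal nor a pool is labelled for any array, so p-values rest on the spread among these 5 samples alone, and that spread may be technical. Tissue, cell type and tumour treatment differ together between the groups and cannot be told apart. The signal of RNA added at labelling, given below, differs with the groups too, so a technical difference cannot be told apart from these either.

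A Rab is a small GTPase that switches between a GTP-bound form on a membrane and a GDP-bound form that a chaperone holds in the cytosol. Exchange factors (GEFs) load GTP and GTPase-activating proteins (GAPs) end the active state, while effectors such as tethers and motors read it. Each Rab marks its own compartment, and in antigen-presenting cells these compartments take in particles, load peptides on MHC molecules and send receptors and cytokines to the surface.

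The values are on a log2 scale and centred for each probe set, so they compare arrays within a gene and give no level between genes. Differences are brain DC minus monocyte on the log2 scale, each given ± its SE from limma (n = 2 and 3). A gene was called when its limma p, adjusted by the Benjamini-Hochberg method over all 18193 genes, was below 0.05. In cells sorted in bulk, fewer cells of a type and less RNA per cell cannot be told apart.

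The sort labels were set against marker genes. All 10 conventional DC markers were higher in the brain DC arrays, and 6 of 7 measured monocyte markers were lower, with Cd14 (2.31) the exception. Among them Itgax, Itgam and Csf1r encode CD11c, CD11b and CD115, which the gates used, so the sort itself favoured their directions. The lists were also chosen with earlier results of these data known, so these counts are no independent check of the labels. Markers of other cells moved with the groups as well. Centred values give no level, so which of them are absent cannot be said. Of 8 measured microglial markers 7 were higher, and the mean of the list lay between 1.36 and 1.55 in brain DC arrays against -0.76 to -0.54 in monocyte arrays. Natural killer and T cell markers were higher in 3 of 8 (list mean 0.66 to 0.86 against -0.80 to -0.67), markers of choroid plexus, glia and endothelium in 3 of 8 (1.15 to 1.30 against -0.29 to -0.22). In that last list Ttr (7.22) and Cldn5 (2.56) were far above the others, and the median difference was 0.35. B cell markers were higher in 1 of 4 (-0.43 to -0.16 against -0.51 to -0.28) and erythroid markers in 1 of 3 (-0.08 to 0.22 against -0.34 to -0.18). Granule and neutrophil markers were lower in 6 of 11 and higher in 1 (1.09 to 1.28 against 2.16 to 3.57). Of 7 melanoma markers 0 were higher and 1, Mitf, was lower (list mean -0.12 to -0.11 against -0.03 to 0.14). By limma's unadjusted p below 0.05, 0 melanoma markers were higher as well. The 24 poly-A spike-in probe sets, which read RNA added at labelling, were all higher on the brain DC arrays (median difference 2.59). The part of these differences in the Rab results was not tested.

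Of the 38 Rab genes, 8 rose in brain DCs relative to monocytes, 12 fell, and 18 did not pass the threshold. That is 21.1% higher and 31.6% lower, where 16.9% of all genes tested were called higher and 16.9% lower, so the higher share lay near the background and the lower share above it. With the other measured Rab family genes added, 16.7% of 60 were higher and 25% lower. The 38 genes were chosen with earlier results of these data known, so these shares describe the chosen list only. The median difference of the Rab genes was -0.11, against 0.09 over all genes, and the median absolute difference was 0.51 against 0.31. The groups did not overlap in 28 of the 38, where 60.2% of all genes did not overlap. In 11 of them brain DCs lay above (35.1% of all genes) and in 17 below (25.0%). At least 2-fold differences were called in 5 higher and 5 lower Rab genes (background 6.03% and 7.51%). Replicates spread little beside these differences: the median range of a Rab gene was 0.21 between the 2 brain DC arrays and 0.24 among the 3 monocyte arrays, and the widest ranges were those of Rab20 in brain DCs (1.29) and of Rab5c in monocytes (0.93). Without monocyte replicate 1 or 3, 6 Rab genes rather than 8 were higher. Calls over all genes fell as well, to 2269 and 2236 higher genes in those fits, from 3068.

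**Figure D1:**
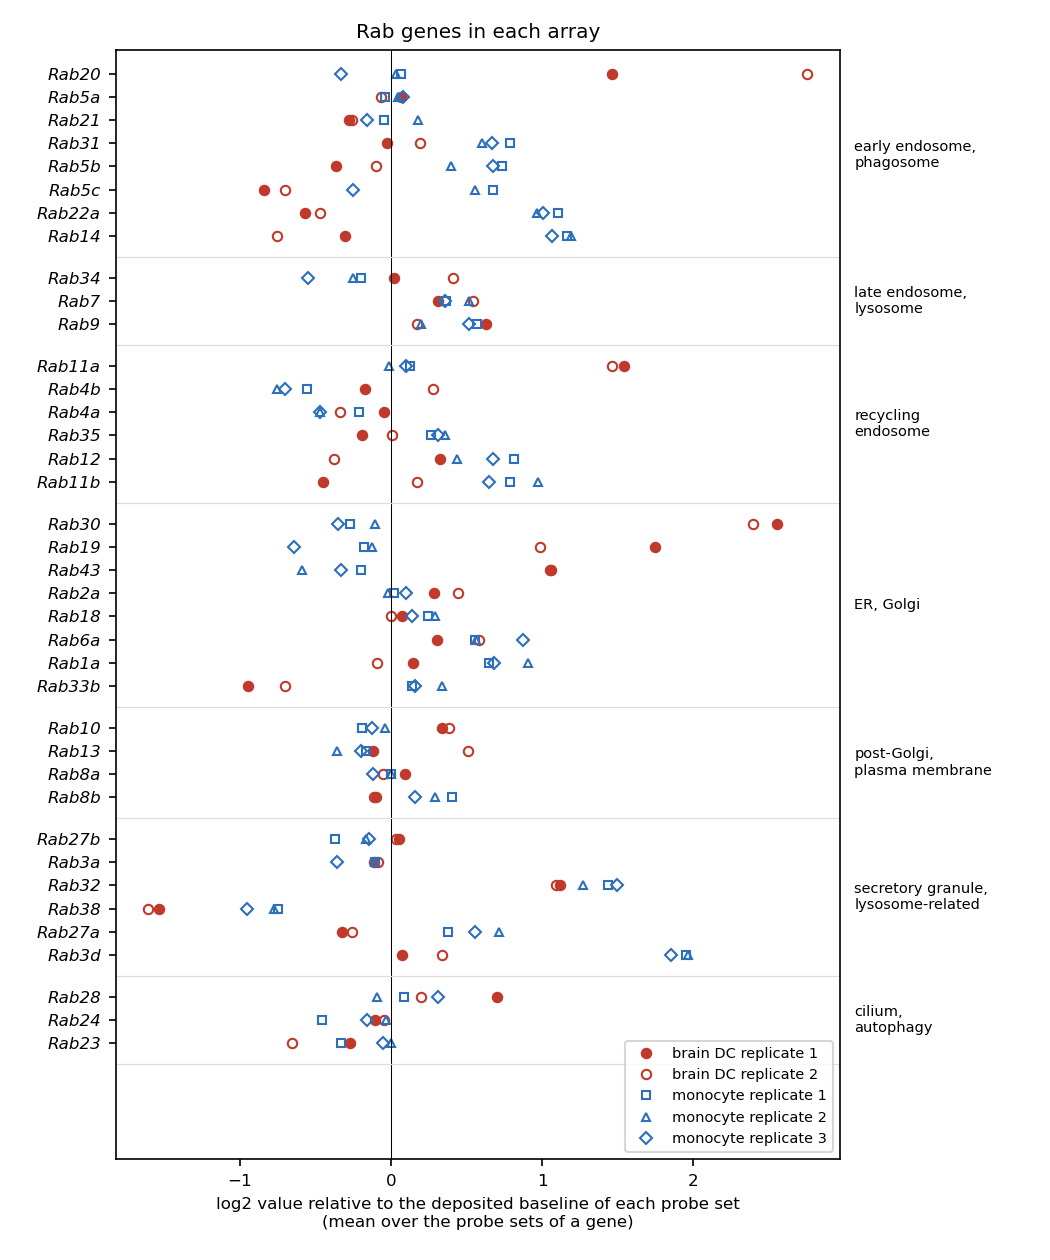
Value of each Rab gene in each of the 5 arrays, as log2 relative to the deposited baseline, averaged over the gene's probe sets and grouped by compartment. Filled and open circles are the brain DC replicates and the other symbols the monocyte replicates. Rab30, Rab20, Rab19, Rab11a and Rab43 stand far to the right in brain DCs, and Rab3d, Rab14 and Rab22a in monocytes. Rab32 stands far to the right in both groups.

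Early endosomes and phagosomes held the largest number of lower Rab genes: 5 of 8 fell in brain DCs, 1 rose and 2 did not pass. Of these 5, Rab5b and Rab31 average probe sets of both signs, and the call of Rab5c was lost when some arrays were left out. Over all genes tested 16.9% were called higher and 16.9% lower, the shares to set beside each compartment and list that follows. Rab14, which works between the Golgi, endosomes and phagosomes, stood at -0.30 and -0.76 in brain DCs and at 1.16, 1.19 and 1.07 in monocytes. It was 3.18-fold lower (-1.67 ± 0.16 SE, limma adjusted p = 2.84e-04), and 6 of its 7 probe sets were called lower. They ran from -2.72 to -0.11 (1419244_a_at, not called), so the size of this fall depends on the probe set too. The most extreme, 1419245_at, was at 0.39 and -2.12 in the brain DC arrays. Rab22a, an early endosomal Rab that also steers recycling of MHC class I, was at -0.57 and -0.47 against 1.11, 0.97 and 1.01. Its fall was 2.92-fold (-1.55 ± 0.12, limma adjusted p = 1.20e-04) as the mean of 4 probe sets, of which 3 were called lower. These ran from -2.90 (1424504_at, the one with the highest mean) to -0.05 (1451379_at, not called), so the size of the fall depends on the probe set. In both genes the 2 brain DC arrays lay below every monocyte array by more than the whole spread within a group.

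The Rab5 isoforms, which govern homotypic fusion of early endosomes, were not all called. Rab5a was at 0.07 and -0.07 in brain DCs and at -0.04, 0.05 and 0.08 in monocytes, a difference of -0.03 ± 0.12 that was not called (limma adjusted p = 0.868). Rab5b was at -0.36 and -0.10 against 0.74, 0.40 and 0.67 and was 1.78-fold lower (-0.83 ± 0.16, limma adjusted p = 0.00566), as the mean of 2 probe sets at -2.10 and 0.43. For Rab5c the values were -0.84 and -0.70 against 0.67, 0.55 and -0.25. Its monocyte replicate 3 lay nearer to the brain DC arrays than the other two, though the groups stayed apart. Rab5c was 2.14-fold lower (-1.10 ± 0.27, limma adjusted p = 0.0171). That call did not hold when brain DC replicate 1 was left out (limma adjusted p = 0.0834), nor without brain DC replicate 2 (0.0542) or monocyte replicate 2 (0.0531). Whether the isoforms differ from each other was not tested.

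Rab31, a close relative of Rab22a that carries cargo from the trans-Golgi to endosomes, is the mean of 2 probe sets with differences of -1.64 and 0.43. The gene was at -0.03 and 0.19 in brain DCs against 0.79, 0.60 and 0.67. It was 1.52-fold lower (-0.61 ± 0.13, limma adjusted p = 0.0116), a call that did not hold when brain DC replicate 1 was left out (-0.50, limma adjusted p = 0.0629). Rab21, which moves integrins through early endosomes, differed by -0.26 ± 0.14 and was not called.

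Rab20, a Rab of phagosomes and endosomes in macrophages, was the 1 gene of this compartment that rose. It stood at 1.46 and 2.75 in brain DCs and at 0.06, 0.03 and -0.33 in monocytes. Both brain DC arrays lay above all monocyte arrays, although they were 1.29 apart. The gene was 4.55-fold higher (2.19 ± 0.34, limma adjusted p = 0.00251), and it is read from 1 probe set.

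Of 3 late endosomal and lysosomal Rabs 1 was higher and 0 were lower by limma (0 also at an unadjusted p below 0.05). Rab34, which positions lysosomes and takes part in phagosome maturation, was at 0.02 and 0.41 against -0.20, -0.25 and -0.55. It was 1.46-fold higher (0.55 ± 0.17, limma adjusted p = 0.0446). That call lay close to the threshold and did not hold when brain DC replicate 2 was dropped (0.35, limma adjusted p = 0.212), nor without monocyte replicate 1 (0.0657), 2 (0.0755) or 3 (0.121). Quantile normalisation (0.0555), median centring (0.0587), array weights (0.0576) and the probe set with the highest mean (0.200) ended it as well. Rab9, which returns receptors from late endosomes to the Golgi, differed by -0.03 ± 0.19. Rab7, the main Rab of late endosomes and lysosomes, came out at 0.01 ± 0.14 as the mean of 2 probe sets that moved in opposite directions. Probe set 1415734_at was at 0.20 and 0.41 in brain DCs against 1.01, 0.93 and 0.96 (-0.66, limma adjusted p = 0.0152 over all probe sets). Probe set 1448159_at was at 0.42 and 0.67 against -0.28, 0.11 and -0.24 (0.68, limma adjusted p = 0.0287). Each separates the groups, so the gene value of Rab7 depends on the probe set read.

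Recycling endosome Rabs split evenly: 2 rose, 2 fell and 2 did not pass. Rab11a, the defining Rab of the recycling endosome, stood at 1.54 and 1.46 in brain DCs and at 0.13, -0.01 and 0.10 in monocytes. It was 2.69-fold higher (1.43 ± 0.12, limma adjusted p = 1.65e-04), with both of its probe sets called higher. Its paralog Rab11b was at -0.45 and 0.17 against 0.79, 0.97 and 0.65 and was 1.92-fold lower (-0.94 ± 0.20, limma adjusted p = 0.0100). Of its 3 probe sets 2 were called lower (-1.24 and -1.36), and 1423448_at (-0.22) was not called. As gene values the paralogs were therefore called in opposite directions, each without overlap between the groups.

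Rab4b, a Rab of rapid recycling, was at -0.17 and 0.28 against -0.55, -0.75 and -0.70 and was 1.65-fold higher (0.72 ± 0.17, limma adjusted p = 0.0133). Without brain DC replicate 2 that call was lost (0.49, limma adjusted p = 0.0617). Its paralog Rab4a was at -0.05 and -0.33 against -0.21, -0.47 and -0.47, with overlapping groups and no call (0.19 ± 0.15). Rab35, which recycles cargo to the plasma membrane, was at -0.19 and 0.01 against 0.27, 0.36 and 0.31. It was 1.33-fold lower (-0.41 ± 0.13, limma adjusted p = 0.0431), a call that did not hold when brain DC replicate 1 was left out (-0.31, limma adjusted p = 0.181), nor without monocyte replicate 1 (0.0897), 2 (0.106) or 3 (0.103). Array weights ended it as well (0.0571). Rab35 is read from 1 probe set, so choosing the highest-mean probe set or the median left its difference at -0.41. Its limma adjusted p was nevertheless above 0.05 in those fits over all genes (0.0793 and 0.0504), so the call was lost. Rab12, which sends the transferrin receptor to lysosomes, differed by -0.67 ± 0.22 and just missed the threshold (limma adjusted p = 0.0538). It passed without brain DC replicate 1 (-1.02, limma adjusted p = 0.0111), with median centring (0.0444) and with array weights (0.0452).

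Among Rabs of the endoplasmic reticulum and Golgi, 3 of 8 were higher, 2 were lower and 3 were not called. Rab30, a Golgi Rab, showed the largest difference of all 38 genes over the 5 arrays, though without brain DC replicate 1 that of Rab20 was larger (2.83 against 2.64). It stood at 2.56 and 2.40 in brain DCs and at -0.27, -0.11 and -0.35 in monocytes, 6.58-fold higher (2.72 ± 0.14, limma adjusted p = 1.45e-05). This lay at the 99.1 percentile of all genes tested. Its 2 probe sets were both called higher but at 4.37 and 1.07, so the size of the increase is less certain than its direction.

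Rab19, read from 1 probe set, was at 1.75 and 0.99 in brain DCs against -0.18, -0.13 and -0.64. The gene was 3.21-fold higher (1.68 ± 0.25, limma adjusted p = 0.00208). Rab43, a Golgi Rab that conventional DCs use in cross-presentation, was at 1.06 and 1.05 against -0.19, -0.59 and -0.33. It was 2.70-fold higher (1.43 ± 0.15, limma adjusted p = 4.12e-04), with 2 of 3 probe sets called. All 3 increases exceeded the spread within either group.

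Rab33b, a Golgi Rab that also recruits the autophagy machinery, was at -0.94 and -0.70 in brain DCs and at 0.14, 0.33 and 0.16 in monocytes. It was 2.05-fold lower (-1.03 ± 0.14, limma adjusted p = 0.00127), as read from 1 probe set. Rab1a, which drives traffic from the endoplasmic reticulum to the Golgi, was at 0.15 and -0.09 against 0.65, 0.91 and 0.68. Its fall was 1.64-fold (-0.72 ± 0.15, limma adjusted p = 0.00775), with all 3 probe sets called lower. Not called were Rab2a, which acts between the same compartments (0.33 ± 0.13), the Golgi Rab gene Rab6a (-0.22 ± 0.16) and Rab18, a Rab of lipid droplets (-0.19 ± 0.12). Rab2a was at 0.28 and 0.44 in brain DCs against 0.02, -0.02 and 0.10, without overlap, and its probe sets ran from -0.36 to 1.07 with 3 called higher. It passed with the median of its 7 probe sets (0.48, limma adjusted p = 0.0396) and without its cross-matching probe sets (0.49, limma adjusted p = 0.0219).

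**Figure D2:**
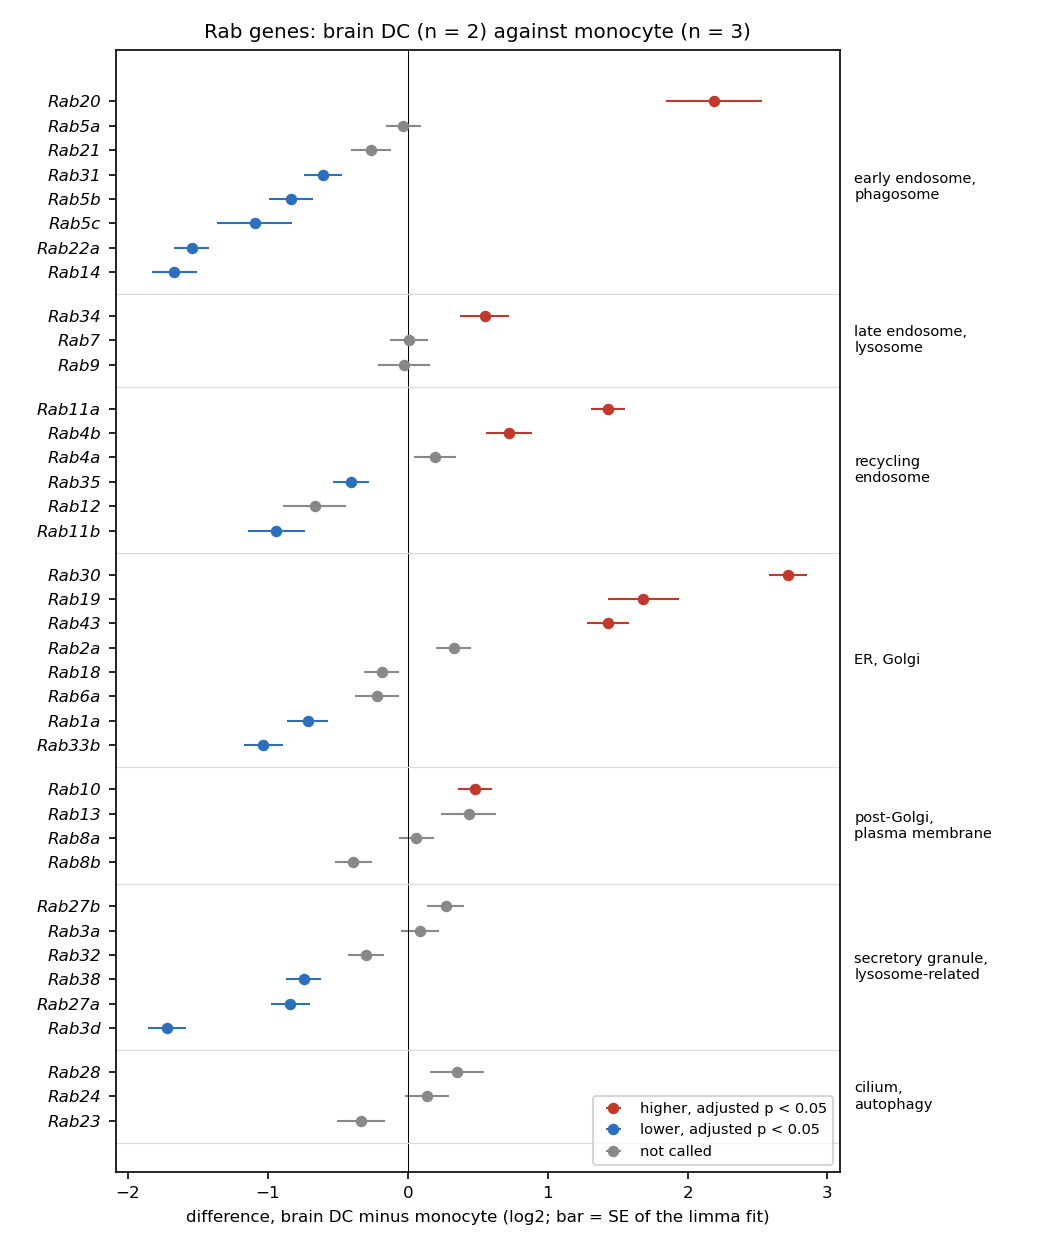
Difference of each Rab gene, brain DC minus monocyte, on the log2 scale, with the SE of the limma fit as a bar. Red points were called higher and blue points lower. Early endosome and granule Rabs lie mostly to the left, with Rab20 at 2.19 the exception among the former.

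Post-Golgi and plasma membrane Rabs held 1 higher gene and 0 lower by limma (1 lower, Rab8b, at an unadjusted p below 0.05). Rab10, which carries receptors and the glucose transporter to the plasma membrane, was at 0.34 and 0.39 against -0.19, -0.04 and -0.13. It was 1.40-fold higher (0.48 ± 0.12, limma adjusted p = 0.0200), the 1 call among 4 genes. The call rested on 1 of 3 probe sets (1.32, against -0.04 and 0.17) and was lost with the median of the probe sets (0.25, limma adjusted p = 0.200). Leaving out either brain DC array ended it too (limma adjusted p = 0.0546 without replicate 1 and 0.0690 without replicate 2). So did leaving out monocyte replicate 1 (0.0705) or 3 (0.0600).

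The exocytic paralogs Rab8a and Rab8b were both not called. Rab8a was at 0.10 and -0.05 against 0.00, 0.00 and -0.12, a difference of 0.06 ± 0.13. Rab8b was at -0.10 and -0.11 against 0.40, 0.29 and 0.16, which kept the groups apart and gave -0.39 ± 0.13 (limma adjusted p = 0.0539, and 0.0373 with median centring). Rab13, a Rab of epithelial junctions, differed by 0.43 ± 0.19 and was not called; it passed without brain DC replicate 1 (0.75, limma adjusted p = 0.0170).

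Rabs of secretory granules and lysosome-related organelles were lower in 3 of 6, higher in 0 by limma (0 also at an unadjusted p below 0.05) and not called in 3. Rab3d, a Rab of secretory granules, had the lowest mean over probe sets of all 38 differences, close to that of Rab14. Rab14 was lower than Rab3d with quantile normalisation (-1.63 against -1.60), without cross-matching probe sets (-1.73 against -1.72) and without brain DC replicate 1 (-1.90 against -1.59). With the probe set of highest mean, Rab22a (-2.90) and Rab14 (-2.51) were lower than Rab3d (-2.45). It stood at 0.08 and 0.34 in brain DCs and at 1.96, 1.97 and 1.86 in monocytes, 3.29-fold lower (-1.72 ± 0.13, limma adjusted p = 1.10e-04). All 4 of its probe sets were called lower. Its paralog Rab3a, a Rab of synaptic vesicles, was at -0.11 and -0.08 against -0.10, -0.10 and -0.36 and was not called (0.09 ± 0.14).

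Rab27a, which docks lysosome-related and cytotoxic granules, was at -0.32 and -0.26 against 0.38, 0.71 and 0.55. It was 1.79-fold lower (-0.84 ± 0.14, limma adjusted p = 0.00337), with all 4 probe sets below 0 and 1 of them called (-2.07). Rab27b, its paralog, was at 0.05 and 0.04 against -0.37, -0.16 and -0.14. Those groups did not overlap, but the difference of 0.27 ± 0.13 was not called.

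Rab38, a Rab of melanosomes and other lysosome-related organelles, was at -1.54 and -1.60 against -0.75, -0.77 and -0.95 and was 1.68-fold lower (-0.75 ± 0.13, limma adjusted p = 0.00372). Its partner Rab32, which shares that role, was at 1.12 and 1.09 against 1.44, 1.27 and 1.50, a difference of -0.30 ± 0.13 that was not called. The neutrophil and granule markers did not move one way. Of 11, 6 were called lower (Cd177 -5.67, Mmp8 -4.76, Mpo -4.64, Prtn3 -4.53, Ctsg -3.57 and Elane -2.38), S100a9 was called higher (1.41), and Camp (1.33), Ngp (1.25), Ltf (0.92) and S100a8 (-0.12) were not called. Their part in the values of the granule Rabs was not tested.

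The 3 remaining Rab genes were not called by limma, and 0 had an unadjusted p below 0.05. They were Rab28, a ciliary Rab (0.35 ± 0.19), Rab24, which is linked to autophagy (0.14 ± 0.16), and Rab23, a regulator of Hedgehog signalling (-0.33 ± 0.17). Their groups overlapped.

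Probe sets of a gene often differed in size, and 28 of the 38 genes had more than 1. The other 10 had 1 probe set each, so no second reading is at hand for them. Among those were the called genes Rab4b, Rab5c, Rab19, Rab20, Rab33b and Rab35. Of the 91 probe sets, 17 were called higher and 28 lower over all probe sets of the array, where 12.3% and 15.4% of probe sets were. In 13 genes the probe sets differed by more than 1, and in 11 they had both signs. Of these 11, 3 were called as genes (Rab5b, Rab31 and Rab10). Rab5b was read at -2.10 by probe set 1437446_at and at 0.43 by 1422119_at. Rab31 was read at -1.64 by 1416165_at and at 0.43 by 1431691_a_at. In both genes 1 probe set separated the groups widely and was called, while the other pointed upwards and was not called. That other probe set kept the groups apart as well. Rab7 was the 1 gene with probe sets called in both directions. What each probe set hybridises to was not examined here.

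**Figure D3:**
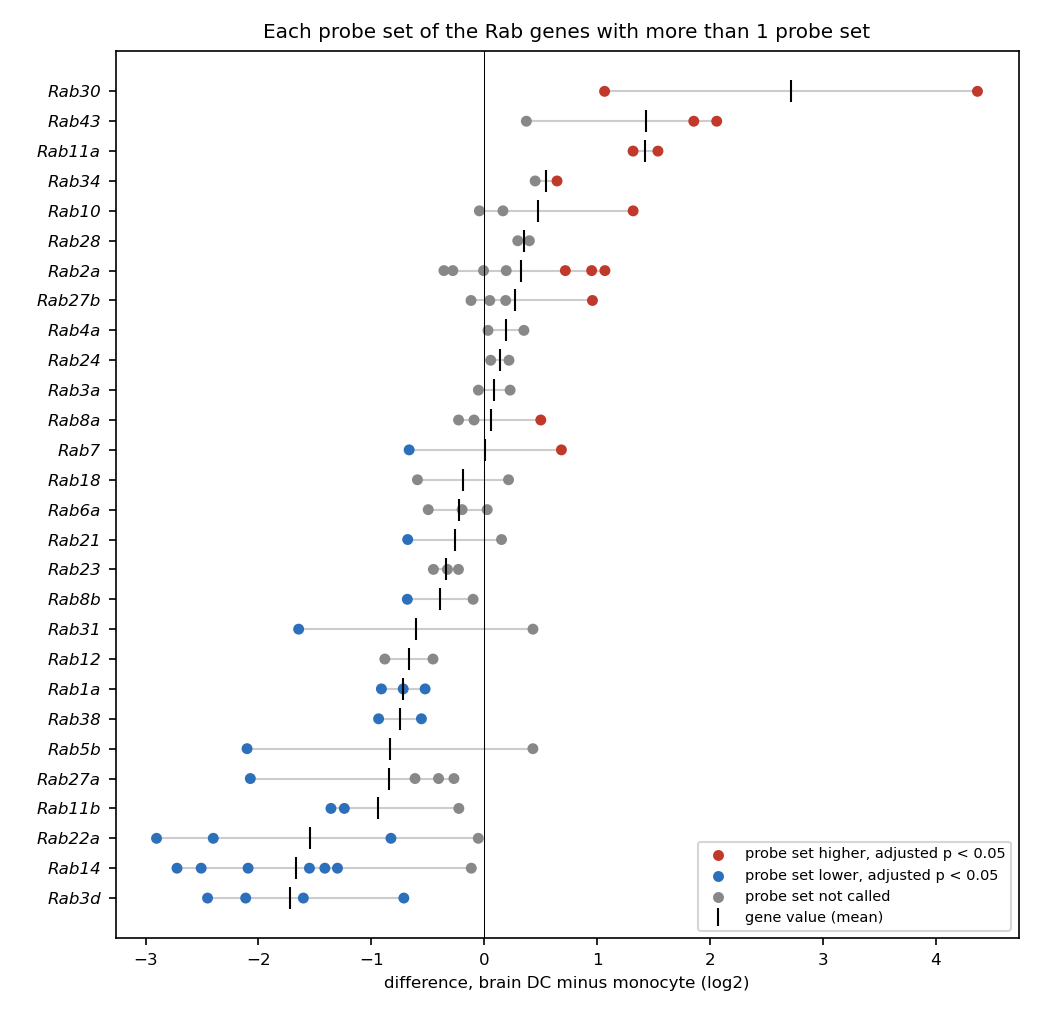
Difference of every probe set of the 28 Rab genes with more than 1 probe set, brain DC minus monocyte, log2. Points are probe sets, coloured by their call over all probe sets, and the vertical tick is the gene value. Rab3d and Rab1a have all their points on the lower side, while Rab7, Rab5b and Rab31 span 0.

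Promoter sequence was examined for what the Rab genes share apart from expression. RefSeq starts on GRCm38.p6 were at hand for 32 of the 38 genes, with 41 starts in all, some of them alternative starts of 1 gene. The 6 others were Rab2a, Rab4a, Rab18, Rab27b, Rab30 and Rab38. The 250 bases before each start had a median GC content of 62%, against 52.4% over the 32851 promoters of the same table, which include non-coding genes. The GC box GGGCGG was found on either strand in 28 of 41 Rab promoters (68.3%), against 32.7% of all. By call it was in 8 of 11 promoters of higher genes and in 10 of 12 of lower genes. These count starts and not genes. Several of the higher ones are alternative starts of Rab43, some of which overlap, so the same GC box can count more than once. The TATA box TATAAA was in 1 (2.44%, all 12.4%) and CCAAT in 17 (41.5%, all 33.8%). The E-box CACGTG was in 5 (12.2%, all 6.02%), those of Rab5a, Rab20, Rab21, Rab23 and Rab27a. Its longer form TCACGTGA, the core of the lysosomal CLEAR element, holds the E-box and was in 2 of these, Rab5a and Rab21 (4.88%, all 0.785%). The AP-1 motif TGANTCA was in 1 promoter (2.44%, all 6.75%), that of Rab34. The interferon-stimulated response element was also in 1 (2.44%, all 2.98%), that of Rab19, and the PU.1 motif GAGGAAGT in that of Rab32 (2.44%, all 2.44%). The cyclic AMP motif TGACGTCA was in that of Rab5a (2.44%, all 1.55%), and a form of the NF-kappaB site was in 0 (all 0.356%). A match is a string of letters and no evidence of binding.

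The 150 bases before the start are printed for the paralogs Rab11a and Rab11b, which were called in opposite directions, and for 4 genes with large differences that had an entry, Rab20, Rab14, Rab22a and Rab3d. Each runs 5′ to 3′ on the strand of the gene, and capitals mark matches to the motifs above on either strand. In Rab22a some of the matches touch or overlap by a base.
Rab11a, chr9:64737757-64737906, minus strand: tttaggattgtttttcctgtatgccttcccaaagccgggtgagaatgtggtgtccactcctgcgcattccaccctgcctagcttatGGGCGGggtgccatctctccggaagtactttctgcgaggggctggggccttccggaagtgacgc
Rab11b, chr17:33760487-33760636, minus strand: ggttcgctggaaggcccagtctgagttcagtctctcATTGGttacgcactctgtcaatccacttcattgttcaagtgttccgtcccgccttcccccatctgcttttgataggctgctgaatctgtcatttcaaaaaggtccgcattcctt
Rab20, chr8:11478641-11478790, minus strand: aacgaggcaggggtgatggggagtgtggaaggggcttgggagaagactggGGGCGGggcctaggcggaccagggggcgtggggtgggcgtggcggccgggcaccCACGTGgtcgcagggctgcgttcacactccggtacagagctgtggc
Rab14, chr2:35201121-35201270, minus strand: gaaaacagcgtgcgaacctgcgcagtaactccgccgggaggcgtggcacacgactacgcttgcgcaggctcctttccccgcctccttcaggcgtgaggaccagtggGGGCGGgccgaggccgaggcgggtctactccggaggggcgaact
Rab22a, chr2:173659695-173659844, plus strand: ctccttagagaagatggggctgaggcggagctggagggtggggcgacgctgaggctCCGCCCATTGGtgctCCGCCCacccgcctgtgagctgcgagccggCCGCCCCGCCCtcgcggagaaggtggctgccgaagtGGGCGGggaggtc
Rab3d, chr9:21918184-21918333, minus strand: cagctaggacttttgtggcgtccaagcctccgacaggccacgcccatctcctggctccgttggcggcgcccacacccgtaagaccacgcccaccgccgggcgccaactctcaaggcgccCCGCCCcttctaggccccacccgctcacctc
The GC box is in the windows of 5 of these 6 genes, higher and lower alike, and the window of Rab11b holds a CCAAT box in its place.

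Of 22 other measured Rab family genes, outside the 38, 2 were higher, 3 lower and 17 not called, with a median of 0.08. That is 9.09% higher and 13.6% lower, both below the 16.9% of all genes called each way. Rab7b, which moves cargo from late endosomes to the Golgi, was 8.30-fold higher (3.05 ± 0.17, limma adjusted p = 2.16e-05), and Rab26 was higher by 0.42 ± 0.13, near the threshold (limma adjusted p = 0.0419). Rab44, a large Rab with EF hands, was 10.7-fold lower (-3.42 ± 0.16). Rab36 (-0.81) and Rab40c (-0.75) were the other lower ones. The call of Rab26 ended when brain DC replicate 2 was dropped (limma adjusted p = 0.170), and likewise without monocyte replicate 1 (0.104), 2 (0.108) or 3 (0.0765).

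The genes that load, retrieve and switch off Rabs moved both ways. Of 7 measured genes of Rab retrieval and prenylation 2 were higher and 3 lower (28.6% and 42.9%, all genes 16.9% each way, median -0.35). Rabac1, the prenylated Rab acceptor, was 5.69-fold higher (2.51 ± 0.19), and Gdi2, a chaperone that keeps GDP-bound Rabs soluble, 2.08-fold (1.06 ± 0.14). The Rab escort protein genes Chm (-0.46) and Chml (-0.52) and Rabif (-0.58) were lower. Of those 3 calls 1 was left when either brain DC array or monocyte replicate 2 was dropped, and 0 when monocyte replicate 1 or 3 was.

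Of 30 measured GEFs 4 were higher, 12 lower and 14 not called, with a median of -0.43. That is 13.3% higher and 40% lower, against 16.9% each way over all genes. Dennd4a was 5.35-fold higher (2.42 ± 0.26), although its 2 probe sets were at 0.76 and 4.08. Hps4, a subunit of the GEF for Rab32 and Rab38, rose 2.45-fold (1.29 ± 0.15). Dennd4c was 3.61-fold lower (-1.85 ± 0.13), Dennd1a, a GEF for Rab35, 2.72-fold (-1.45 ± 0.21) and Rin2, a Rab5 GEF, 2.31-fold (-1.21 ± 0.19). Other Rab5 GEFs did not all follow Rin2. Rabgef1 (0.78) was higher, Gapvd1 (-0.47) was lower, and Rin1 (0.28) and Rin3 (-0.53) were not called. The call of Gapvd1 was lost without monocyte replicate 1 or 3. Without monocyte replicate 1, 7 GEFs rather than 12 were lower, and over all genes 2604 rather than 3083 were.

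Of 34 measured GAPs 10 were higher, 11 lower and 13 not called (median -0.10). That is 29.4% higher and 32.4% lower, against 16.9% each way over all genes. Evi5, a TBC domain protein that binds Rab11, was 14.6-fold lower (-3.87 ± 0.19). Tbc1d2b (-3.02 ± 0.13) and its relative Tbc1d2, a GAP for Rab7 (-2.38 ± 0.15), fell too, as did Tbc1d23 (-1.50 ± 0.14). Tbc1d10c was 6.27-fold higher (2.65 ± 0.16). Without monocyte replicate 1, fewer than 10 GAPs were higher, and over all genes 2269 rather than 3068 were.

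Among 42 measured effectors 5 were higher, 10 lower and 27 not called (median -0.13). That is 11.9% higher and 23.8% lower. In either direction 35.7% were called, near the 33.8% of all genes. Eea1, the tether that Rab5 recruits to early endosomes, was 3.38-fold lower (-1.76 ± 0.15, limma adjusted p = 1.70e-04). Rbsn, which encodes rabenosyn, an effector of Rab4 and Rab5, was 3.04-fold lower (-1.60 ± 0.14), and Ocrl, a phosphoinositide phosphatase that binds several Rabs, 2.85-fold (-1.51 ± 0.14). Rab11fip1, an effector of Rab11, was 2.60-fold higher (1.38 ± 0.14) and Rilpl2 3.74-fold (1.90 ± 0.13). The other Rab11fip genes went both ways. Rab11fip4 (0.79) was higher, Rab11fip5 (-1.19) and Rab11fip2 (-0.60) were lower, and Rab11fip3 (0.36) was not called. Both of these lower calls were lost without monocyte replicate 2. Of the Rab kinases Lrrk1 and Lrrk2 and the Rab phosphatase Ppm1h, limma called 0 of 3, and 0 had an unadjusted p below 0.05. Their differences were -0.31 ± 0.18, -0.03 ± 0.31 and -0.19 ± 0.16. The brain DC arrays disagreed on Lrrk2, which was called higher when replicate 1 was dropped (0.57, limma adjusted p = 0.0471). It was called lower when replicate 2 was dropped (-0.63, limma adjusted p = 0.0317).

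**Figure D4:**
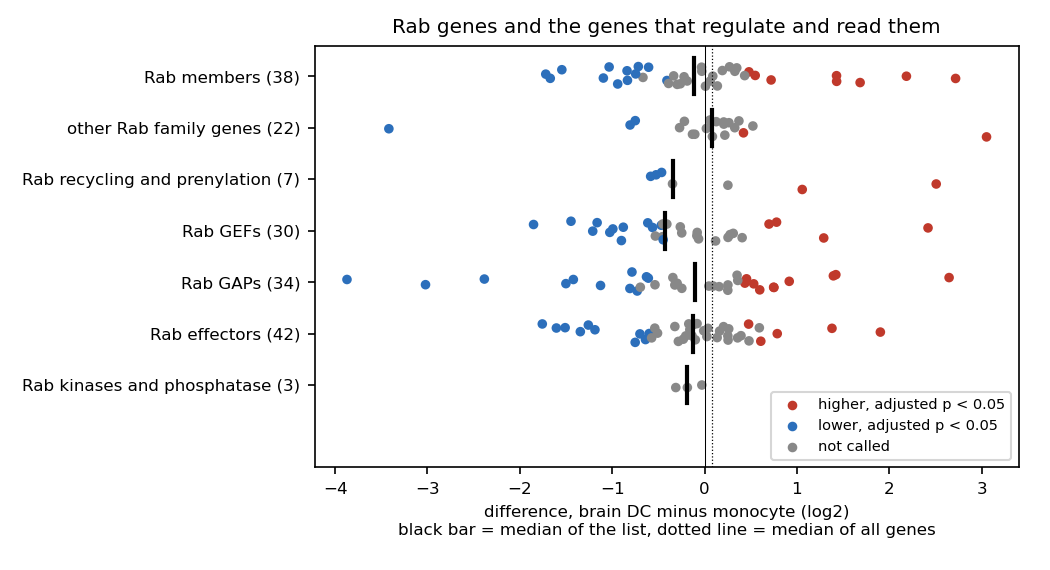
Difference of each measured gene, brain DC minus monocyte, log2, for the 38 Rab genes and 6 lists around them, with the number of measured genes in brackets. Points are genes coloured by call, black bars list medians and the dotted line the median of all genes, 0.09. The GEF list has its median lowest, at -0.43, and the widest points are Evi5 (-3.87), Rab44 (-3.42) and Rab7b (3.05).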

How the data were processed

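Expression was measured on Affymetrix arrays hybridised with biotin-labelled cRNA from total RNA, 2 arrays of brain DCs and 3 of bone marrow monocytes; microglia and spleen DCs, which the series also names, were not analysed here. The deposited values are log2 values made by the authors with RMA, per the submitters' processing notes; that they are log2 and centred on a baseline per probe set was read from the values, and no source used here states the baseline. These values were used as deposited. Of 45101 probe sets, 34945 carry 1 gene symbol and are not controls, and a gene is the mean of its probe sets, which gave 18193 genes. Groups were compared with limma 3.58.1 in R 4.3.3 (lmFit, eBayes, 3 residual degrees of freedom), with Benjamini-Hochberg adjustment over all genes. With 2 against 3 arrays the smallest two-sided exact permutation p is 0.1, so that test was not used. The code was tested on simulated data. The number of arrays limits the precision, and no detection calls are at hand. The members, lists and motifs were chosen with earlier results of these data known. Values in every array are given for the largest called differences, close paralogs and genes whose probe sets differ by more than 1 with opposite signs. Of each list around the Rabs, up to 5 called genes with the largest differences are named. The Rab11fip genes and further Rab5 GEFs are named beside them. Lrrk1, Lrrk2 and Ppm1h, which were not called, and the marker genes were picked for naming with their values in view.

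The alternatives were other summaries of the probe sets, other scalings, robust and weighted fits, a replicate block, a 2-fold limit and leaving out each array. A filter on dim probe sets and another background correction could not be run on centred, processed values. Promoters came from RefSeq (GRCm38.p6), with 250 bases before each start searched on both strands.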

Additional observations from a re-analysis of the deposited data

How the results depend on the processing

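All 20 called Rab genes kept their direction in every alternative that was followed gene by gene, at most 13 per gene, and 14 kept their call in all of them. The 2-fold limit and each probe set tested on its own are not among these 13. Each probe set on its own gave 7 higher and 10 lower Rab genes. Of these, 7 and 9 had the same call in the main fit. Leaving out each array gave 5 to 8 higher Rab genes. At a 2-fold limit 5 Rab genes were higher and 5 lower, and the lists held 1 higher and 1 lower other Rab gene, 0 lower genes of retrieval and prenylation, 2 higher and 5 lower GEFs, 3 higher and 6 lower GAPs, and 2 higher and 6 lower effectors. Other Rab genes called higher numbered 1 with the highest-mean probe set, with each probe set on its own, with quantile normalisation, with median centring, with array weights and with the replicate block, and 1 to 3 without 1 array. Retrieval and prenylation genes numbered 1 higher with the highest-mean probe set, and lower 1 with the median of probe sets, 1 with each probe set on its own, 1 with quantile normalisation, 0 with the block and 0 to 1 without 1 array. Higher GAPs numbered 6 with the highest-mean probe set and 6 to 8 without 1 array, lower GEFs 7 to 9 without 1 array, and of kinases and phosphatase 0 to 1 were higher and 0 to 1 lower without 1 array. Genes not called changed sign. Rab7 was at -0.66 with the highest-mean probe set, -0.030 with centring, -0.017 with the block and -0.11 to 0.13 without 1 array. Rab8a was at -0.23 with the highest-mean probe set and -0.011 without brain DC replicate 1, and Rab21 at 0.15 with the highest-mean probe set. Rab9 was at 0.039 with quantile normalisation, 0.014 with the block and -0.26 to 0.20 without 1 array, and Rab5a at -0.099 to 0.034 without 1 array. The cause was not tested. The labels do not say that equal replicate numbers are paired, and deviations of same-numbered arrays correlated at 0.04 and 0.09; with the replicate block 2513 genes were higher and 3006 lower, against 3068 and 3083, and 6 Rab genes were higher and 12 lower. Under the block Rab10 (adjusted p = 0.0625), Rab34 (0.107) and Rab35 (0.101) lost their calls in limma and Rab12 (0.0240) gained one. With 5 arrays, differences that were not called are not shown to be absent.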
